A study of Sus scrofa with 10 samples.

Results

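The comparison set grafts grown from pig testis cells against pig testis tissue. GF grafts (4 libraries) grew from germ cells and testicular fibroblasts together, given with Matrigel by injection to the dorsal skin of a host that the labels call a SKID mouse, and taken after 6 months. Control testis (2 libraries) was tissue whose titles say testis and control and mention no graft, and which carry the code 5D without explaining it, so the age of the control animals is not known here. The members were all libraries whose titles say GF tissue or control, 6 of the 10 libraries of the series, and all 27376 genes of the table were read in them. The other 4 libraries, FO grafts made from testicular fibroblasts alone in the same kind of host for the same time, entered the model to help estimate the spread and are quoted for some genes. Cell type and growth fields of the control libraries repeat those of the grafts, so the groups rest on the titles. Nothing in the labels says how many animals gave the cells or tissue, whether animals were pooled or how many hosts were used, so that the spread between libraries may be technical. Counts are on pig genes, and RNA of the mouse host may be missed or counted in part.

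Testis tissue is built from seminiferous tubules, in which Sertoli cells nurse the germ cells and peritubular myoid cells form the wall, and from an interstitium with steroid-making Leydig cells, vessels and macrophages. Germ cells pass from dividing spermatogonia through meiosis to spermatids, which pack their DNA with transition proteins and protamines and build an acrosome and a tail. Before puberty the tubules hold Sertoli cells and early germ cells only, and meiotic and spermatid genes come on with puberty.

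Libraries held 2915534 to 4917325 counts in the GF group and 5844944 and 7013911 in the control group, so 3 counts correspond to 0.453 to 1.04 CPM (counts per 1000000 counts of a library, scaled with TMM factors) in 1 library. The first principal component of all 10 libraries carried 46.8% of the variance and placed the control libraries at -41.7 and -43.9 and GF 1 to GF 4 at 29.3, 63.3, 136 and 110. GF 3 and GF 4 thus lay farthest out, had the lowest totals of the series and had 0.183% and 0.750% of their counts on tRNA genes, against at most 0.0601% in any other library. Total calls and the counts of some gene lists are given below with and without this pair. Fold changes of single called genes without the pair are not given. Comparisons of CPM are made within a gene and not between genes. In bulk tissue, fewer cells of a type and less RNA per cell cannot be told apart.

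Of 15877 genes tested, 4091 (25.8%) differed at an adjusted p under 0.05, 2221 higher in GF grafts (14.0%) and 1870 lower (11.8%). The other 11499 genes had too few counts to be tested, 5317 of them with no count in the 6 libraries, and they held 0.169% to 0.261% of the counts. Large differences were common: 1329 genes were at least 4-fold higher and 790 at least 4-fold lower in the fit, and 242 and 92 passed 64-fold. In 166 of the higher genes both control libraries were at 0, and in 66 of the lower genes all 4 GF libraries were. The values of the groups did not overlap for 2137 of the 2221 higher genes and for all 1870 lower ones, where 47.2% of all tested genes had groups that did not overlap. GF 3 held the highest GF value of 917 higher genes, GF 4 of 746, GF 2 of 409 and GF 1 of 149. With GF 3 and GF 4 left out, 5677 genes were called (2872 higher, 2805 lower), and with GF 1 and GF 2 left out 7021 (3213 higher, 3808 lower). Leaving out control 1 gave 1395 calls (652 higher, 743 lower) and leaving out control 2 gave 1141 (562 higher, 579 lower), in fits that assume the lone control varies like the other groups. Counts of gene lists below are read against the 14.0% and 11.8% of all genes.

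**Figure D1:**
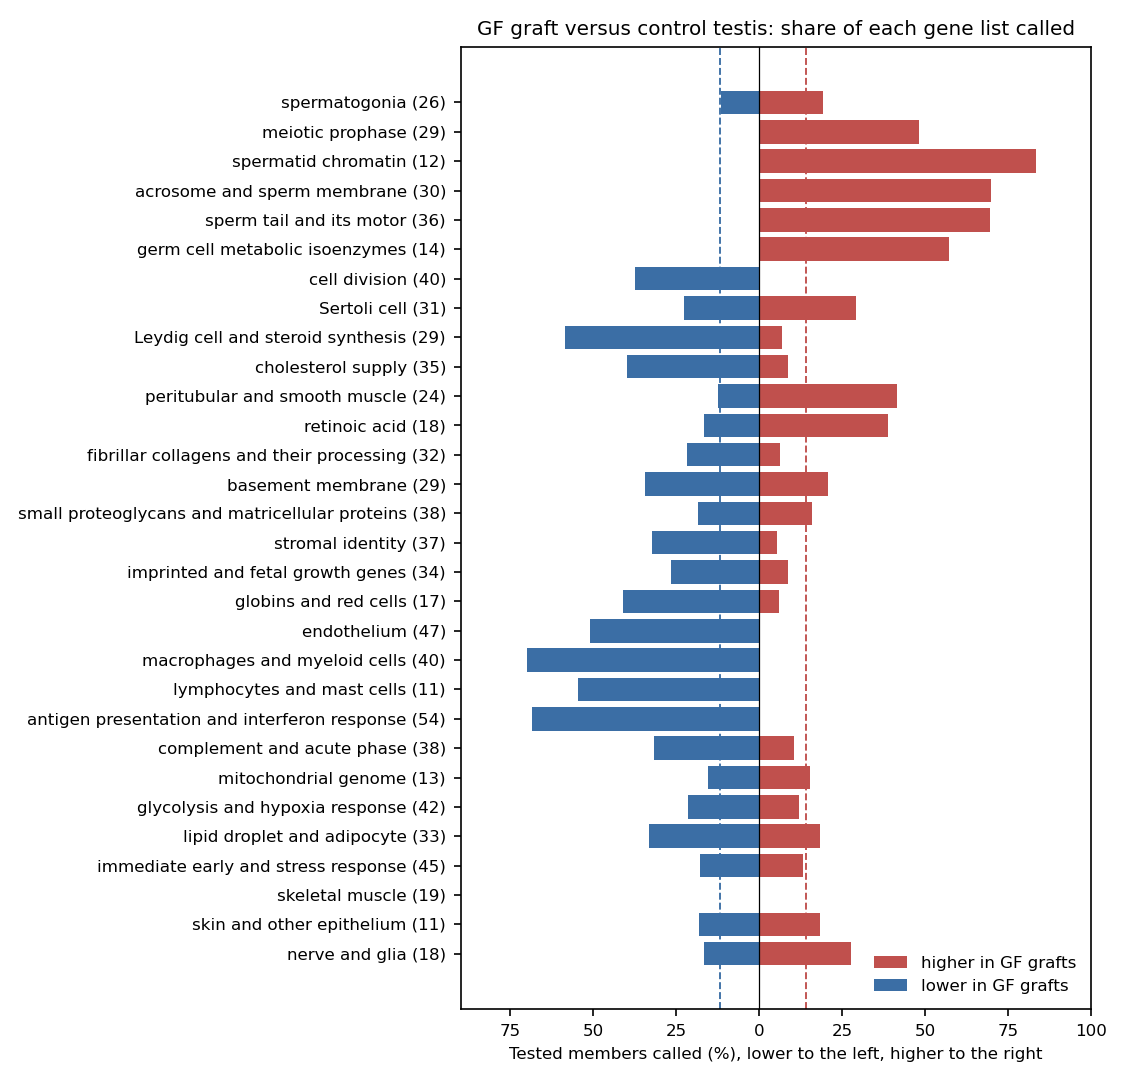
Bars give the percent of the tested members of each of 30 gene lists (number tested in brackets) that were higher (red, right) or lower (blue, left) in GF grafts than in control testis, and dashed lines give the same percent over all tested genes (14.0 and 11.8). The 5 longest bars to the right all belong to germ cell lists, and those that reach furthest to the left are myeloid, antigen presentation and interferon, Leydig, lymphocyte and mast cell, and endothelial lists.

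Many genes of late germ cells were higher in GF grafts, with larger shares of the meiotic and spermatid lists than of the spermatogonial list. In the spermatogonial list 5 of 26 tested members were higher (19.2%) and 3 lower (11.5%), near the 14.0% and 11.8% of all tested genes. THY1, 1 of the 3 lower members, is also in the list of stromal identity. For genes of meiotic prophase, 14 of 29 tested members were higher and none lower. Spermatid chromatin genes gave 10 higher and none lower of 12 tested, genes of the acrosome and sperm membrane 21 higher and none lower of 30 tested, and genes of the sperm tail 25 higher and none lower of 36 tested. The median log2 fold changes of these 5 lists were 0.34, 1.63, 6.65, 5.13 and 3.38, against 0.03 over all tested genes. Without control 1 and without control 2 the higher members were 3 and 2 for spermatogonia, 6 and 5 for meiosis, 6 and 6 for spermatid chromatin, 9 and 9 for the acrosome and 11 and 9 for the tail, and the lower spermatogonial members were 3 and 1. Without GF 4 the higher spermatogonial members were 9. Without GF 3 and GF 4, counts of higher members were 16, 9, 21 and 23 for meiosis, spermatid chromatin, acrosome and tail. At an unadjusted p under 0.05 edgeR had 0 members lower in the 5 lists from meiosis to the germ cell isoenzymes, and DESeq2 called none of their members lower.

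**Figure D2:**
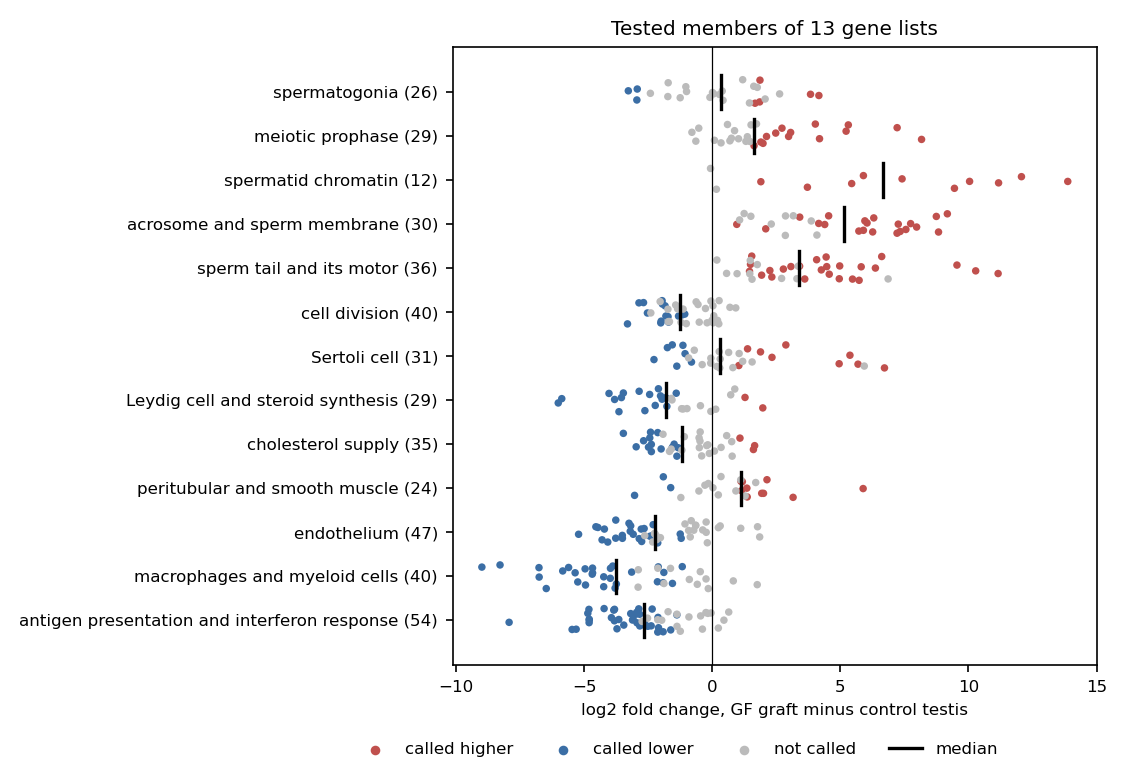
Each point is 1 tested member of 1 of 13 gene lists, placed by its log2 fold change (GF graft minus control testis) and coloured by its call, and black bars are list medians. The medians of the germ cell lists run from 0.34 for spermatogonia to 6.65 for spermatid chromatin. The lowest median of the 13 lists is -3.77, for macrophage and myeloid genes.

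Of the spermatogonial genes called, some were higher and some lower, in shares near those of all tested genes. ID4, a helix-loop-helix regulator that marks stem-like spermatogonia but is also made in other cells, measured 8.41 and 5.74 CPM in control 1 and 2 and 93.4, 119, 78.0 and 114 CPM in the GF libraries (log2 fold change 3.84 ± 0.43 SE, edgeR adjusted p = 8.17e-05). ZBTB16, a zinc finger repressor that keeps spermatogonia undifferentiated, stood at 187, 211, 401 and 413 CPM in GF 1 to GF 4, with 87.9 and 78.7 CPM in the controls (log2 fold change 1.86 ± 0.38 SE, edgeR adjusted p = 0.00357, and adjusted p = 0.0674 without control 2). MOV10L1, a helicase of piRNA production, was at 1.15 and 3.17 CPM in the controls and at 21.2, 28.7, 63.2 and 45.3 CPM in GF 1 to GF 4 (log2 fold change 4.16 ± 0.69 SE, edgeR adjusted p = 0.00101, and 5.03 without control 2). All 4 GF libraries lay above both controls for each of these genes. GFRA1, the receptor subunit through which GDNF keeps spermatogonial stem cells, measured 19.1 and 19.5 CPM in control 1 and 2 and 2.79, 2.89, 0.690 and 3.46 CPM in the GF libraries (log2 fold change -2.94 ± 0.62 SE, edgeR adjusted p = 0.00421, and adjusted p = 0.0524 without control 2). KIT, the receptor of differentiating spermatogonia and also of mast cells and Leydig cells, stood at 85.7, 70.6, 80.8 and 56.7 CPM in GF 1 to GF 4, with 711 and 715 CPM in the controls. KIT had a log2 fold change of -3.28 ± 0.27 (SE, edgeR adjusted p = 9.66e-06). Both receptors were thus lower in every GF library while ID4 and ZBTB16 were higher. DDX4, a helicase of all germ cells, was at 20.8 and 20.9 CPM in the controls and at 59.4, 102, 56.3 and 46.7 CPM in GF 1 to GF 4 (log2 fold change 1.67 ± 0.45 SE, edgeR adjusted p = 0.0158), and its adjusted p was 0.138 without control 1 and 0.149 without control 2. FO grafts, made from fibroblasts alone, held 1.15 ± 0.777 CPM (SD, n = 4) of DDX4 and 133 ± 56.7 CPM (SD, n = 4) of ID4. They held 94.1 ± 20.8 CPM (SD, n = 4) of ZBTB16, near the control level, and which cells hold it was not tested. Between GF and FO grafts ID4 was not called (GF minus FO log2 fold change -0.40 ± 0.28 SE, edgeR adjusted p = 0.290), nor was GFRA1 (-0.29 ± 0.56 SE, edgeR adjusted p = 0.714) or KIT (0.07 ± 0.23 SE, edgeR adjusted p = 0.843). DDX4 was higher in GF than in FO grafts (GF minus FO log2 fold change 5.78 ± 0.45 SE, edgeR adjusted p = 1.00e-05), as was ZBTB16 (1.68 ± 0.29 SE, edgeR adjusted p = 0.000936).

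Of the meiotic genes called, 4 are described here. PIWIL1, the PIWI protein of pachytene spermatocytes and round spermatids, measured 7.42 and 5.74 CPM in control 1 and 2 and 125, 249, 458 and 156 CPM in the GF libraries. PIWIL1 had a log2 fold change of 5.22 ± 0.60 (SE, edgeR adjusted p = 9.19e-05). HORMAD1, which sits on unsynapsed chromosome axes, stood at 25.5, 51.6, 31.8 and 37.0 CPM in GF 1 to GF 4, with 5.44 and 5.59 CPM in the controls (log2 fold change 2.72 ± 0.50 SE, edgeR adjusted p = 0.00185). SYCE3, a part of the central element of the synaptonemal complex, was at 0.330 and 0.907 CPM in the controls and at 14.6, 29.2, 51.1 and 8.64 CPM in GF 1 to GF 4 (log2 fold change 5.31 ± 0.96 SE, edgeR adjusted p = 0.00167), and its log2 fold change was 6.15 without control 2. MEIOC, a factor that keeps cells in meiotic prophase, was at 0 in both control libraries and at 7.5, 9.57, 7.94 and 5.88 CPM in GF 1 to GF 4. Against a floor of 3 counts over the control group it was at least 33.8-fold higher (edgeR adjusted p = 0.00148), and the bound was 17.7 without control 1 and 16.2 without control 2. Every GF library exceeded both controls for these 4 genes. The fold between the lowest and highest GF library was 3.67 for PIWIL1 and 2.02 for HORMAD1.

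Spermatid genes varied several-fold among the GF libraries. ADAM2, the sperm surface protein fertilin beta, measured 0.330 and 0.453 CPM in control 1 and 2 and 20.6, 40.8, 46.3 and 25.2 CPM in the GF libraries. ADAM2 had a log2 fold change of 6.30 ± 0.64 (SE, edgeR adjusted p = 3.92e-05). ACRBP, which binds the zymogen of the acrosomal protease, stood at 22.9, 84.5, 92.9 and 58.1 CPM in GF 1 to GF 4, with 2.14 and 3.32 CPM in the controls (log2 fold change 4.54 ± 0.60 SE, edgeR adjusted p = 0.000225). ADAM3A, another sperm surface protein, had 3 counts over the control group and 301 over the GF group, a ratio of 79.6 with an exact 95% counting interval of 27.0 to 388 (edgeR adjusted p = 0.000988). The first 3 all lay far above the controls in each GF library. In the tail, SPAG6 of the central pair was at 0.989 and 1.06 CPM in the controls and at 11.4, 35.9, 33.8 and 11.8 CPM in GF 1 to GF 4. SPAG6 had a log2 fold change of 4.47 ± 0.78 (SE, edgeR adjusted p = 0.00140). FSIP2 of the fibrous sheath measured 13.2 and 10.9 CPM in control 1 and 2 and 91.5, 291, 422 and 118 CPM in the GF libraries (log2 fold change 4.26 ± 0.79 SE, edgeR adjusted p = 0.00199), and ODF4 of the outer dense fibres stood at 11.6, 25.6, 36.9 and 21.1 CPM in GF 1 to GF 4, with 0.495 and 0.302 CPM in the controls. ODF4 had a log2 fold change of 5.81 ± 0.96 (SE, edgeR adjusted p = 0.000959). GF 1 was the lowest of the GF libraries for all 6 of these genes and GF 2 or GF 3 the highest. PRM1, a protamine, was at 0 in both controls and at 86.4, 434, 958 and 146 CPM in GF 1 to GF 4, highest in GF 3 and lowest in GF 1. It was at least 1588-fold higher over the groups (edgeR adjusted p = 0.000526), at least 828-fold without control 1, 759-fold without control 2 and 1043-fold without GF 3. Each GF library held this spermatid signal, in different amounts.

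**Figure D3:**
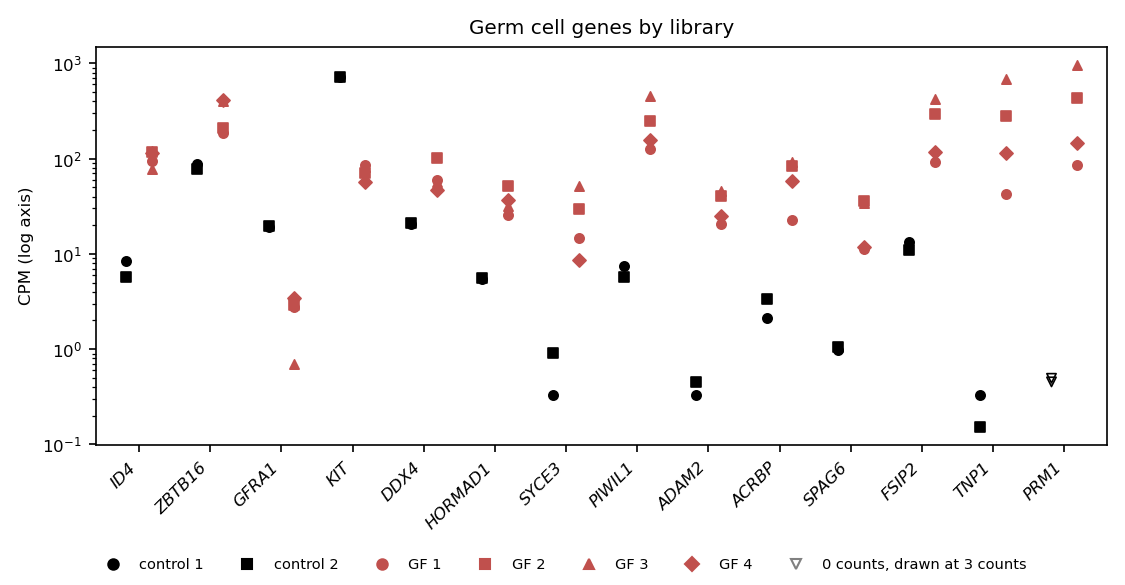
Points are CPM of 14 germ cell genes (log axis) in each control (black) and GF graft (red) library, and open triangles mark 0 counts, drawn at the CPM of 3 counts. GFRA1 and KIT lie below the controls in all 4 GF libraries, and the genes from DDX4 to PRM1 lie above them.

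A few genes outside the lists were named for the size of their difference. C1H9orf57 was at 0 in the controls and at 50.6, 116, 116 and 34.9 CPM in GF 1 to GF 4, at least 348-fold higher (edgeR adjusted p = 9.49e-05; 182 without control 1 and 166 without control 2). ANKRD35, an ankyrin repeat protein, was at 1.81 and 1.06 CPM in the controls and at 162, 279.6, 2116 and 497 CPM in GF 1 to GF 4 (log2 fold change 9.04 ± 1.20 SE, edgeR adjusted p = 0.000225, and 7.73 without GF 3). FO grafts held 1.61 ± 0.383 CPM (SD, n = 4) of ANKRD35 (GF minus FO log2 fold change 8.88 ± 0.87 SE, edgeR adjusted p = 2.99e-05). In the list of metabolic isoenzymes that germ cells use in place of somatic forms, 8 of 14 tested members were higher and none lower, falling to 5 and 3 without control 1 and control 2. GK2 of this list was at 0 in both controls and at 42.2, 83.0, 62.8 and 23.5 CPM in GF 1 to GF 4. It was at least 240-fold higher (edgeR adjusted p = 0.000198), 125-fold without control 1 and 115-fold without control 2. The list also holds PHGDH, the first enzyme of serine synthesis, which is no such isoenzyme. PHGDH measured 19.6 and 25.5 CPM in control 1 and 2 and 121, 129.8, 114 and 149.7 CPM in the GF libraries (log2 fold change 2.51 ± 0.28 SE, edgeR adjusted p = 8.36e-05). FO grafts held 75.1 ± 10.5 CPM (SD, n = 4) of PHGDH (GF minus FO log2 fold change 0.78 ± 0.20 SE, edgeR adjusted p = 0.0103).

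Genes of cell division that were called were all lower. In this list none of 40 tested members were higher and 15 lower, and the median log2 fold change was -1.27. CENPE, a kinetochore motor, stood at 25.5, 35.4, 32.5 and 19.4 CPM in GF 1 to GF 4, with 160.3 and 167 CPM in the controls. CENPE had a log2 fold change of -2.53 ± 0.31 (SE, edgeR adjusted p = 0.000143). MCM2, a subunit of the replicative helicase, was at 91.2 and 106 CPM in the controls and at 23.6, 15.2, 5.18 and 16.9 CPM in GF 1 to GF 4 (log2 fold change -2.68 ± 0.40 SE, edgeR adjusted p = 0.000522). KIF11, the motor that separates spindle poles, measured 54.6 and 43.2 CPM in control 1 and 2 and 2.14, 6.50, 5.87 and 5.19 CPM in the GF libraries. KIF11 had a log2 fold change of -3.31 ± 0.53 (SE, edgeR adjusted p = 0.000756). CENPF, a kinetochore protein of dividing cells, stood at 81.9, 118, 125 and 71.9 CPM in GF 1 to GF 4, with 379 and 387 CPM in the controls. CENPF had a log2 fold change of -1.95 ± 0.36 (SE, edgeR adjusted p = 0.00179). No GF library reached the control range for these genes. None of the list was higher, with 0 at an unadjusted p under 0.05 and 0 by DESeq2. Lower members numbered 7 and 5 without control 1 and control 2, 22 without GF 3 and GF 4 and 23 without GF 1 and GF 2. The proliferation antigen MKI67 was at 55.7 and 56.4 CPM in the controls and at 14.4, 17.3, 25.2 and 6.91 CPM in GF 1 to GF 4 (log2 fold change -1.81 ± 0.53 SE, edgeR adjusted p = 0.0239), with an adjusted p of 0.133 without control 1 and 0.149 without control 2. In FO grafts CENPF stood at 14.2 ± 6.78 CPM (SD, n = 4), below GF grafts (GF minus FO log2 fold change 2.80 ± 0.33 SE, edgeR adjusted p = 9.79e-05).

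Sertoli cell genes split into a higher and a lower group. In the list, 9 of 31 tested members were higher and 7 lower. Without GF 3 and GF 4 the list had 12 higher and 6 lower members. CLU, the secreted chaperone clusterin, measured 3607 and 4072 CPM in control 1 and 2 and 13699, 15697, 39130 and 43933 CPM in the GF libraries (log2 fold change 2.87 ± 0.51 SE, edgeR adjusted p = 0.00147). CLU alone made up most of the summed CPM of the list in the GF libraries, though not in the controls, and without it the sum was 5688 and 6165 in the controls and 5762, 5920, 8225 and 10649 in GF 1 to GF 4. GF 3 and GF 4 were again apart from GF 1 and GF 2. ESPN, an actin bundler of the Sertoli cell junctions that hold spermatids, stood at 188, 188, 834 and 654 CPM in GF 1 to GF 4, with 13.5 and 8.91 CPM in the controls. ESPN had a log2 fold change of 5.37 ± 0.76 (SE, edgeR adjusted p = 0.000349). Both were higher in every GF library. MRO, a testis gene of Sertoli cells, was at 10.4 and 9.07 CPM in the controls and at 261, 338, 257 and 352 CPM in GF 1 to GF 4 (log2 fold change 4.95 ± 0.52 SE, edgeR adjusted p = 4.65e-05). SOX9, the factor that sets Sertoli fate, stood at 403, 515, 453 and 561 CPM in GF 1 to GF 4, with 198 and 174 CPM in the controls (log2 fold change 1.38 ± 0.25 SE, edgeR adjusted p = 0.00161, and adjusted p = 0.0529 without control 2). MRO and SOX9 were higher in every GF library too. AMH, the hormone of immature Sertoli cells that falls at puberty, was at 446 and 521 CPM in the controls and at 45.2, 32.5, 136 and 188 CPM in GF 1 to GF 4 (log2 fold change -2.28 ± 0.66 SE, edgeR adjusted p = 0.0226), with an adjusted p of 0.0827 without control 1 and 0.127 without control 2. VIM, the intermediate filament vimentin of Sertoli and stromal cells, measured 1986 and 1838 CPM in control 1 and 2 and 892, 559, 485 and 654 CPM in the GF libraries. VIM had a log2 fold change of -1.56 ± 0.25 (SE, edgeR adjusted p = 0.000768). AMH and VIM were lower in each GF library, and lower members of the list were 2 and 2 without control 1 and control 2.

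Genes of steroid synthesis were more often lower than higher among those called. In the Leydig list 2 of 29 tested members were higher and 17 lower, with 9 and 7 lower members left without control 1 and control 2 and no higher member without either. Leaving out FO 1, FO 2, FO 3 or GF 2 left 1 higher member. STAR, which moves cholesterol into mitochondria, stood at 69.0, 33.2, 30.4 and 67.1 CPM in GF 1 to GF 4, with 2904 and 2960 CPM in the controls (log2 fold change -5.88 ± 0.54 SE, edgeR adjusted p = 2.09e-05). CYP11A1, which cuts the cholesterol side chain, was at 1628 and 1699 CPM in the controls and at 256, 160.3, 175 and 329 CPM in GF 1 to GF 4 (log2 fold change -2.86 ± 0.44 SE, edgeR adjusted p = 0.000608), and its electron donor FDX1 measured 791 and 999 CPM in control 1 and 2 and 142, 77.6, 47.6 and 37.7 CPM in the GF libraries. FDX1 had a log2 fold change of -3.55 ± 0.48 (SE, edgeR adjusted p = 0.000280). No GF library approached the controls. SCARB1, the receptor that takes up cholesterol from lipoproteins, stood at 45.2, 35.4, 19 and 14.9 CPM in GF 1 to GF 4, with 289 and 353 CPM in the controls (log2 fold change -3.47 ± 0.46 SE, edgeR adjusted p = 0.000225). CYB5A, which aids the lyase step of CYP17A1, was at 5083 and 6464 CPM in the controls and at 1373, 829.9, 628 and 1410 CPM in GF 1 to GF 4. CYB5A had a log2 fold change of -2.44 ± 0.41 (SE, edgeR adjusted p = 0.000970). The pig aromatase gene CYP19A3 measured 429 and 466 CPM in control 1 and 2 and 10.3, 4.51, 7.25 and 5.53 CPM in the GF libraries (log2 fold change -6.01 ± 0.78 SE, edgeR adjusted p = 0.000191); pig aromatases are near copies, and counts could be split among them. These were lower in each GF library than in either control. INSL3, the Leydig hormone of testis descent, stood at 2406, 1042, 1076 and 1607 CPM in GF 1 to GF 4, with 8207 and 10774 CPM in the controls (log2 fold change -2.63 ± 0.64 SE, edgeR adjusted p = 0.00902, and adjusted p = 0.0741 without control 2). The call of CYP17A1 was the least stable of them. CYP17A1 was at 931 and 852 CPM in the controls and at 138, 71.5, 217 and 454 CPM in GF 1 to GF 4 (log2 fold change -2.02 ± 0.68 SE, edgeR adjusted p = 0.0433), its adjusted p ranged from 0.0603 to 0.163 without control 1, control 2, FO 4, GF 1, GF 2 or GF 3, and its log2 fold change was -2.65 without GF 4. HSD3B1, which makes the delta-4 steroids, measured 47.5 and 61.0 CPM in control 1 and 2 and 43.1, 34.5, 9.32 and 21.4 CPM in the GF libraries and was not called (log2 fold change -0.99 ± 0.48 SE, edgeR adjusted p = 0.143).

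GF and FO grafts share the same 2 controls, so their values are set side by side only. FO grafts held 52.7 ± 35.4 CPM (SD, n = 4) of STAR, 243 ± 140.1 CPM (SD, n = 4) of CYP11A1 and 1152 ± 1128 CPM (SD, n = 4) of INSL3. Direct GF minus FO differences missed the threshold for STAR (GF minus FO log2 fold change -0.08 ± 0.43 SE, edgeR adjusted p = 0.898), for CYP11A1 (GF minus FO log2 fold change -0.08 ± 0.37 SE, edgeR adjusted p = 0.884) and for INSL3 (GF minus FO log2 fold change 0.41 ± 0.54 SE, edgeR adjusted p = 0.582), where 34.5% of all tested genes passed.

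Cholesterol genes were likewise more often lower than higher among those called. In this list 3 of 35 tested members were higher and 14 lower, and lower members were 13 and 11 without control 1 and control 2, while no higher member was left. CYP51, which removes the lanosterol methyl group, was at 237 and 241 CPM in the controls and at 58.7, 78.5, 58.0 and 43.6 CPM in GF 1 to GF 4 (log2 fold change -2.0 ± 0.26 SE, edgeR adjusted p = 0.000181). EBP, the sterol isomerase, measured 96.5 and 124 CPM in control 1 and 2 and 16.7, 16.4, 20.4 and 31.8 CPM in the GF libraries. EBP had a log2 fold change of -2.38 ± 0.32 (SE, edgeR adjusted p = 0.000228). Both enzymes were lower in each GF library. SOAT1, which stores cholesterol as esters, stood at 8.14, 10.8, 10 and 12.4 CPM in GF 1 to GF 4, with 58.2 and 51.8 CPM in the controls (log2 fold change -2.41 ± 0.37 SE, edgeR adjusted p = 0.000584). Lipid genes outside sterols were mixed: in that list 6 of 33 tested members were higher and 11 lower (without control 1 and control 2, 2 and 1 higher and 7 and 5 lower). FABP5, a fatty acid carrier, was at 140.0 and 183 CPM in the controls and at 13.1, 11.6, 13.1 and 9.68 CPM in GF 1 to GF 4. FABP5 had a log2 fold change of -3.76 ± 0.40 (SE, edgeR adjusted p = 5.55e-05). CIDEA, a lipid droplet protein, measured 11.4 and 8.01 CPM in control 1 and 2 and 76.1, 78.0, 151 and 214 CPM in the GF libraries. CIDEA had a log2 fold change of 3.74 ± 0.58 (SE, edgeR adjusted p = 0.000636). ELOVL2, which lengthens polyunsaturated fatty acids and is not in the list, stood at 826, 1178, 557 and 733 CPM in GF 1 to GF 4, with 79.1 and 86.0 CPM in the controls (log2 fold change 3.32 ± 0.38 SE, edgeR adjusted p = 9.19e-05).

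Contractile and pericyte genes, read as 1 list, were more often higher than lower among those called. In this list 10 of 24 tested members were higher and 3 lower, and higher members were 2 and 2 without control 1 and control 2, with 1 lower member without control 2. MYH11, smooth muscle myosin, was at 20.6 and 18.7 CPM in the controls and at 100.3, 109.6, 227 and 266 CPM in GF 1 to GF 4. MYH11 had a log2 fold change of 3.15 ± 0.51 (SE, edgeR adjusted p = 0.000814). PDGFRB, the PDGF receptor of pericytes and fibroblasts, measured 154 and 201 CPM in control 1 and 2 and 34.9, 31.8, 8.63 and 9.68 CPM in the GF libraries (log2 fold change -3.03 ± 0.46 SE, edgeR adjusted p = 0.000564). GF 3 and GF 4 were the highest for MYH11 and the lowest for PDGFRB. Without GF 3 and GF 4 the list had 9 higher and 5 lower members. ACTA2, smooth muscle actin, stood at 274, 264, 184 and 254 CPM in GF 1 to GF 4, with 179 and 235 CPM in the controls, and its groups overlapped (log2 fold change 0.24 ± 0.25 SE, edgeR adjusted p = 0.511).

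Retinoic acid is made from vitamin A and starts meiosis in germ cells. In its list 7 of 18 tested members were higher and 3 lower, with 5 and 4 higher and no lower members without control 1 and control 2. ALDH1A1, a retinaldehyde dehydrogenase, was at 16 and 19.8 CPM in the controls and at 267, 291, 203 and 232 CPM in GF 1 to GF 4. ALDH1A1 had a log2 fold change of 3.79 ± 0.36 (SE, edgeR adjusted p = 2.88e-05). LRAT, which stores retinol as esters, measured 2.97 and 2.12 CPM in control 1 and 2 and 34.1, 27.6, 45.2 and 67.4 CPM in the GF libraries. LRAT had a log2 fold change of 4.08 ± 0.50 (SE, edgeR adjusted p = 0.000143). CRABP1, a binding protein of retinoic acid, stood at 249, 188, 73.9 and 78.1 CPM in GF 1 to GF 4, with 10.2 and 19.2 CPM in the controls (log2 fold change 3.32 ± 0.53 SE, edgeR adjusted p = 0.000761). Both enzymes and the binding protein were higher in each GF library. RDH10, which oxidises retinol, was at 8.08 and 6.80 CPM in the controls and at 33.4, 35.6, 26.2 and 36.0 CPM in GF 1 to GF 4. RDH10 had a log2 fold change of 2.14 ± 0.36 (SE, edgeR adjusted p = 0.00102). Control libraries were below every GF library for all 4, and for CRABP1 GF 1 and GF 2 were above GF 3 and GF 4. FO grafts held 72.0 ± 22.8 CPM (SD, n = 4) of LRAT and 312 ± 39.2 CPM (SD, n = 4) of CRABP1.

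**Figure D4:**
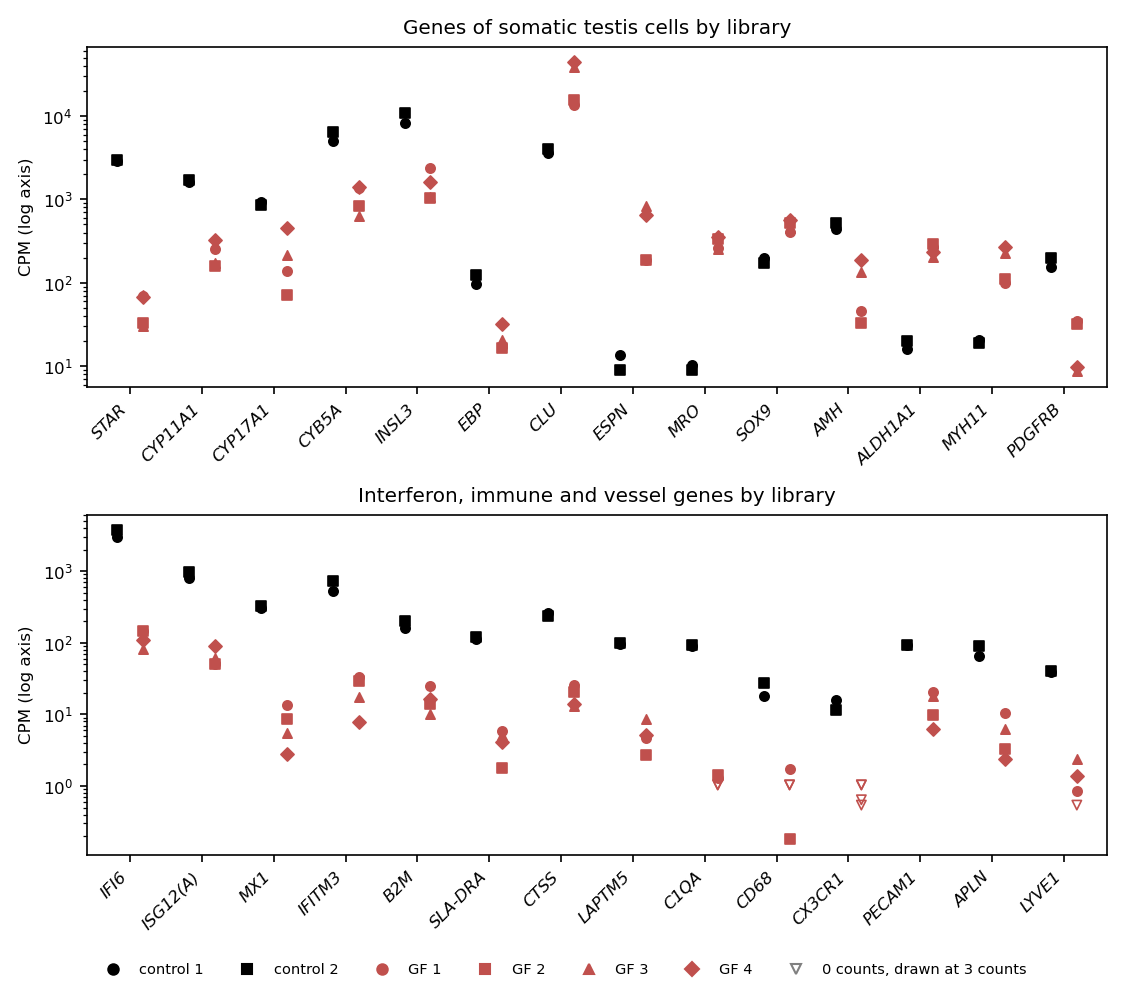
Points are CPM (log axis) in each control (black) and GF graft (red) library for 14 genes of somatic testis cells (top) and 14 interferon, immune and vessel genes (bottom), and open triangles mark 0 counts, drawn at the CPM of 3 counts. All 14 genes of the lower panel lie below the controls in every GF library, and in the upper panel CLU, ESPN, MRO, SOX9, ALDH1A1 and MYH11 lie above them.

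Matrix genes moved in both directions. In the list of fibrillar collagens 2 of 32 tested members were higher and 7 lower and in the basement membrane list 6 of 29 tested members were higher and 10 lower. Among fibrillar collagens COL3A1 measured 1441 and 1448 CPM in control 1 and 2 and 341, 219, 175 and 82.6 CPM in the GF libraries (log2 fold change -2.82 ± 0.39 SE, edgeR adjusted p = 0.000325). COL1A1 stood at 1131, 621, 639 and 849 CPM in GF 1 to GF 4, with 976 and 1146 CPM in the controls, with overlapping groups (log2 fold change -0.39 ± 0.31 SE, edgeR adjusted p = 0.370). SERPINH1, the collagen chaperone, was at 490.0 and 645 CPM in the controls and at 229, 108, 60.4 and 99.2 CPM in GF 1 to GF 4. SERPINH1 had a log2 fold change of -2.19 ± 0.38 (SE, edgeR adjusted p = 0.00141). COL3A1 and its chaperone were lower in every GF library, and COL1A1 was not. In the basement membrane COL4A4 measured 10.4 and 7.25 CPM in control 1 and 2 and 173, 156, 146 and 166 CPM in the GF libraries (log2 fold change 4.18 ± 0.41 SE, edgeR adjusted p = 3.09e-05), whereas COL4A1 stood at 290.2, 165, 555 and 501 CPM in GF 1 to GF 4, with 678 and 739 CPM in the controls and was not called (log2 fold change -0.91 ± 0.42 SE, edgeR adjusted p = 0.128). LAMB1, a laminin chain of early basement membranes, was at 265 and 271 CPM in the controls and at 64.9, 51.3, 51.1 and 37.7 CPM in GF 1 to GF 4. LAMB1 had a log2 fold change of -2.38 ± 0.24 (SE, edgeR adjusted p = 4.09e-05). COL4A4 and COL4A1 encode chains of the same collagen type, and the difference between their fold changes was not tested. PXDN, which crosslinks collagen IV, measured 107 and 102 CPM in control 1 and 2 and 16.7, 6.32, 11.4 and 12.8 CPM in the GF libraries (log2 fold change -3.15 ± 0.34 SE, edgeR adjusted p = 5.55e-05). LAMB1 and PXDN were low in all GF libraries. Without control 1 and control 2, higher basement membrane members were 1 and 1 and lower ones 5 and 6, and lower fibrillar members 3 and 3 with no higher one (1 higher one without FO 1, FO 2, FO 3, FO 4, GF 3 or GF 4).

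Proteoglycan, stromal and growth genes were read the same way. In the list of small proteoglycans and matricellular proteins 6 of 38 tested members were higher and 7 lower, in that of stromal identity 2 of 37 tested members were higher and 12 lower, and in that of imprinted and fetal growth genes 3 of 34 tested members were higher and 9 lower. Without control 1 and control 2 the lower members were 4 and 4, 3 and 3 and 3 and 2, the higher ones 3 and 3, 1 and 1 and 2 and 2, and 12 proteoglycan members were lower without GF 1. FO 1, FO 3, FO 4 or GF 3 left out gave 1 higher stromal member. DPT, the matrix protein dermatopontin, stood at 8.57, 4.69, 5.87 and 4.15 CPM in GF 1 to GF 4, with 61.2 and 71.6 CPM in the controls (log2 fold change -3.50 ± 0.41 SE, edgeR adjusted p = 9.97e-05), and FBN1 of the microfibrils was at 174 and 137 CPM in the controls and at 36.9, 22.6, 13.1 and 18.7 CPM in GF 1 to GF 4. FBN1 had a log2 fold change of -2.76 ± 0.38 (SE, edgeR adjusted p = 0.000295). DPT and FBN1 were lower in each GF library, but other members of that list were higher. EFEMP1 stood at 19.3, 19.3, 11.4 and 3.46 CPM in GF 1 to GF 4, with 0.824 and 0.302 CPM in the controls. EFEMP1 had a log2 fold change of 4.55 ± 0.79 (SE, edgeR adjusted p = 0.00128), and 5.35 without control 1. TNXB was higher too (log2 fold change 2.98 ± 0.54 SE, edgeR adjusted p = 0.00164), as was CILP2, described under other observations. NT5E, the surface enzyme CD73, measured 50.6 and 55.0 CPM in control 1 and 2 and 308, 342, 248 and 373 CPM in the GF libraries (log2 fold change 2.59 ± 0.30 SE, edgeR adjusted p = 9.49e-05). It was 1 of the 2 higher stromal members. Among the 12 lower ones, DPP4 had 70 counts over the controls and 0 over the GF libraries. DPP4 was at least 29.4-fold lower (edgeR adjusted p = 0.00204), 16.1-fold without control 1 and 19.2-fold without GF 2. THY1 (log2 fold change -2.93 ± 0.64 SE, edgeR adjusted p = 0.00538) and NR2F1 (-1.65 ± 0.36 SE, edgeR adjusted p = 0.00541) were lower too. The call of THY1 was lost without control 2 (log2 fold change -2.51), and that of NR2F1 without control 1 (-1.57). IGF2BP2, an RNA-binding protein of fetal cells, stood at 5.57, 7.94, 7.25 and 0.346 CPM in GF 1 to GF 4, with 96.6 and 114 CPM in the controls. IGF2BP2 had a log2 fold change of -4.27 ± 0.53 (SE, edgeR adjusted p = 0.000143). IGF1, a growth factor, was at 27.4 and 35.5 CPM in the controls and at 181, 173, 133 and 87.5 CPM in GF 1 to GF 4 (log2 fold change 2.19 ± 0.39 SE, edgeR adjusted p = 0.00150), while IGF2 measured 216 and 267 CPM in control 1 and 2 and 267, 147, 198 and 249 CPM in the GF libraries with overlapping groups (log2 fold change -0.17 ± 0.27 SE, edgeR adjusted p = 0.684). Every GF library lay outside the control range for NT5E, IGF2BP2 and IGF1. FO grafts held 403 ± 138 CPM (SD, n = 4) of IGF1, above GF grafts (GF minus FO log2 fold change -1.49 ± 0.29 SE, edgeR adjusted p = 0.00186). EFEMP1 was also above GF grafts in FO grafts, at 49.2 ± 18.2 CPM (SD, n = 4; GF minus FO log2 fold change -1.85 ± 0.45 SE, edgeR adjusted p = 0.00712).

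The list of interferon-stimulated and antigen presentation genes had the most lower members, and it was also the list with the most tested members. In this list none of 54 tested members were higher and 37 lower (68.5%), with a median log2 fold change of -2.65. By share, the macrophage and myeloid list had more lower members (70%). Their summed CPM was 7675 and 9037 in the controls and 1103, 850, 811 and 1101 in GF 1 to GF 4. IFI6, a mitochondrial protein induced by type I interferon, stood at 144, 145, 82.5 and 109 CPM in GF 1 to GF 4, with 2986 and 3726 CPM in the controls (log2 fold change -4.80 ± 0.28 SE, edgeR adjusted p = 7.92e-07), and without this gene the sums were 4689 and 5311 against 705 to 992. ISG12(A), an interferon-induced membrane protein, was at 798 and 987 CPM in the controls and at 51.2, 51.3, 62.1 and 89.5 CPM in GF 1 to GF 4. ISG12(A) had a log2 fold change of -3.82 ± 0.29 (SE, edgeR adjusted p = 5.97e-06). The pair of genes was lower in each GF library by a wide margin. MX1, a GTPase that blocks viruses, measured 304 and 323 CPM in control 1 and 2 and 13.5, 8.67, 5.52 and 2.77 CPM in the GF libraries (log2 fold change -5.31 ± 0.40 SE, edgeR adjusted p = 5.97e-06). IFITM3, which blocks viral entry and has near copies in the genome, stood at 33.4, 29.6, 17.3 and 7.95 CPM in GF 1 to GF 4, with 536 and 726 CPM in the controls. IFITM3 had a log2 fold change of -4.81 ± 0.41 (SE, edgeR adjusted p = 1.29e-05). B2M, the light chain of MHC class I, was at 160.1 and 203 CPM in the controls and at 25.1, 14.1, 10 and 16.6 CPM in GF 1 to GF 4 (log2 fold change -3.45 ± 0.31 SE, edgeR adjusted p = 1.86e-05). SLA-DRA, the alpha chain of pig MHC class II, measured 114 and 120.1 CPM in control 1 and 2 and 5.79, 1.81, 5.18 and 4.15 CPM in the GF libraries. SLA-DRA had a log2 fold change of -4.81 ± 0.58 (SE, edgeR adjusted p = 0.000126). IFIH1, a sensor of viral RNA, stood at 3.43, 4.33, 1.04 and 0 CPM in GF 1 to GF 4, with 65.0 and 71.0 CPM in the controls. IFIH1 had a log2 fold change of -4.81 ± 0.63 (SE, edgeR adjusted p = 0.000214). The 4 GF libraries were below both controls in each case. No member was higher by edgeR, with 0 at an unadjusted p under 0.05 and 0 by DESeq2. Lower members numbered 29 and 25 without control 1 and control 2, and 43 and 40 without the GF 3 and 4 pair and without the GF 1 and 2 pair. FO grafts held 467 ± 72.1 CPM (SD, n = 4) of IFI6 and 34.3 ± 4.42 CPM (SD, n = 4) of MX1, above GF grafts in the direct test (GF minus FO log2 fold change -1.96 ± 0.23 SE, edgeR adjusted p = 9.12e-05 and GF minus FO log2 fold change -2.12 ± 0.35 SE, edgeR adjusted p = 0.000674).

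Myeloid genes that were called were all lower. In the macrophage and myeloid list none of 40 tested members were higher and 28 lower, with a median log2 fold change of -3.77 and 18 lower members without control 2. Their summed CPM was 2172 and 2401 in the controls and 533 to 745 in GF grafts. CTSS, a lysosomal protease of antigen-presenting cells, was at 264 and 238 CPM in the controls and at 26.1, 20.6, 13.1 and 14.2 CPM in GF 1 to GF 4 (log2 fold change -3.74 ± 0.45 SE, edgeR adjusted p = 0.000126). LAPTM5, a lysosomal membrane protein of blood cells, measured 95.6 and 100.5 CPM in control 1 and 2 and 4.72, 2.71, 8.63 and 5.19 CPM in the GF libraries. LAPTM5 had a log2 fold change of -4.24 ± 0.52 (SE, edgeR adjusted p = 0.000134). C1QC, a chain of complement C1q made by macrophages, stood at 2.57, 1.08, 1.73 and 0 CPM in GF 1 to GF 4, with 55.7 and 83.9 CPM in the controls (log2 fold change -5.61 ± 0.76 SE, edgeR adjusted p = 0.000277). Levels in the GF libraries were a small part of the control levels for these genes. CX3CR1, the fractalkine receptor, had 173 counts over the controls and 0 over the 4 GF libraries, at least 72.7-fold lower against 3 counts over the GF group (edgeR adjusted p = 0.000520; 47.5 without GF 2). Among lymphocyte and mast cell genes none of 11 tested members were higher and 6 lower, KIT among them, and the summed CPM was 798 and 814 in the controls and 88.5 to 148 in GF grafts. KIT, also a gene of germ and Leydig cells, made up most of the control sums, and without it the sums were 87.2 and 99.9 in the controls and 30.9 to 67.3 in GF grafts. GIMAP1, a GTPase of lymphocytes that is not in this list, was at 88.9 and 96.5 CPM in the controls and at 1.71, 1.08, 2.76 and 1.73 CPM in GF 1 to GF 4. GIMAP1 had a log2 fold change of -5.70 ± 0.57 (SE, edgeR adjusted p = 3.42e-05). MS4A2, the mast cell chain of the IgE receptor, had 179 counts over the controls and 0 over GF grafts, at least 75.2-fold lower (edgeR adjusted p = 0.000376; 49.2 without GF 2). CD2 of T cells had 113 and 0 counts, at least 47.5-fold lower (edgeR adjusted p = 0.00410; 31.0 without GF 2). CX3CR1, MS4A2 and CD2 thus had no count in any GF library, and mouse cells of the same kind were not measured. Higher members at an unadjusted p under 0.05 numbered 0 of the myeloid and 1 of the lymphocyte and mast cell list, and DESeq2 called 0 and 1.

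Vessel and blood genes followed. In the endothelial list none of 47 tested members were higher and 24 lower, 7 and 6 lower without control 1 and control 2. For the higher direction edgeR had 2 members at an unadjusted p under 0.05 and DESeq2 called 2. Summed CPM of the list was 1552 and 1617 in the controls and 479 to 727 in GF grafts. PECAM1, the junction protein CD31, measured 93.3 and 94.6 CPM in control 1 and 2 and 20.8, 9.75, 18 and 6.22 CPM in the GF libraries. PECAM1 had a log2 fold change of -2.77 ± 0.51 (SE, edgeR adjusted p = 0.00199). APLN, the ligand apelin of sprouting tips, stood at 10.5, 3.25, 6.21 and 2.42 CPM in GF 1 to GF 4, with 65.0 and 90.1 CPM in the controls (log2 fold change -3.77 ± 0.49 SE, edgeR adjusted p = 0.000191). ANGPT2, a regulator of vessel remodelling, was at 26.5 and 28.7 CPM in the controls and at 3.21, 5.96, 3.45 and 9.68 CPM in GF 1 to GF 4. ANGPT2 had a log2 fold change of -2.32 ± 0.45 (SE, edgeR adjusted p = 0.00274). All 3 were lower in the 4 GF libraries and had counts in each of them. In the red cell list 1 of 17 tested members was higher and 7 lower (4 lower without control 2). GYPC, a red cell membrane protein also made elsewhere, measured 74.7 and 87.3 CPM in control 1 and 2 and 32.6, 17.2, 15.9 and 14.2 CPM in the GF libraries (log2 fold change -2.01 ± 0.36 SE, edgeR adjusted p = 0.00168). HBB, the beta globin, had 44251 counts over the controls and 3 over the GF libraries, a ratio of 18600 with an exact 95% counting interval of 6364 to 90199 (edgeR adjusted p = 2.6e-06), and 39523 without GF 1.

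Complement and chemokine genes were mostly lower among those called. In this list 4 of 38 tested members were higher and 12 lower, CLU being 1 of the higher ones, and higher members were 2 and 1 without control 1 and control 2. CXCL12, the stromal chemokine that holds stem cells and leukocytes in place, stood at 41.8, 28.5, 36.2 and 31.8 CPM in GF 1 to GF 4, with 391 and 363 CPM in the controls. CXCL12 had a log2 fold change of -3.45 ± 0.24 (SE, edgeR adjusted p = 3.51e-06). C3, the central complement component, was at 186 and 226 CPM in the controls and at 38.4, 20.6, 28.7 and 50.8 CPM in GF 1 to GF 4. C3 had a log2 fold change of -2.58 ± 0.30 (SE, edgeR adjusted p = 0.000110). CD59, which blocks the membrane attack complex, measured 189 and 233 CPM in control 1 and 2 and 71.4, 41.9, 21.4 and 23.2 CPM in the GF libraries (log2 fold change -2.41 ± 0.40 SE, edgeR adjusted p = 0.000908). No GF library reached the control range for these 3 genes. FO grafts held 249.6 ± 33.6 CPM (SD, n = 4) of C3, above GF grafts (GF minus FO log2 fold change -2.86 ± 0.28 SE, edgeR adjusted p = 2.8e-05).

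Metabolic and stress genes showed no single direction. In the list of glycolysis and the hypoxia response 5 of 42 tested members were higher and 9 lower (without control 1 and control 2, 3 and 3 higher and 3 and 2 lower). PDK3, a kinase that holds back pyruvate oxidation, stood at 181, 231, 195 and 245 CPM in GF 1 to GF 4, with 41.9 and 38.7 CPM in the controls (log2 fold change 2.40 ± 0.26 SE, edgeR adjusted p = 5.47e-05), and ANGPTL4, a hypoxia- and lipid-induced secreted protein, was at 158 and 177 CPM in the controls and at 22.3, 6.68, 28.3 and 23.9 CPM in GF 1 to GF 4. ANGPTL4 had a log2 fold change of -3.06 ± 0.44 (SE, edgeR adjusted p = 0.000372). In the list of immediate early and stress genes 6 of 45 tested members were higher and 8 lower (1 and 1 higher and 4 and 5 lower without control 1 and control 2, and 10 higher without GF 4). MT1A, a metal-binding metallothionein, measured 6.76 and 5.14 CPM in control 1 and 2 and 57.0, 98.8, 53.9 and 41.8 CPM in the GF libraries (log2 fold change 3.40 ± 0.49 SE, edgeR adjusted p = 0.000410). It was 1 of the 6 higher members. Among the 8 lower ones were IER3 (log2 fold change -1.58 ± 0.27 SE, edgeR adjusted p = 0.00124) and DUSP6 (-2.02 ± 0.35 SE, edgeR adjusted p = 0.00125). HSPH1 (-1.65 ± 0.30 SE, edgeR adjusted p = 0.00180) and TXNIP (-1.64 ± 0.30 SE, edgeR adjusted p = 0.001875) were lower too. Of 13 mitochondrial genome transcripts 4 were called, ATP8, ATP6, ND5 and ND6, against 2 called without control 1 and 1 without control 2. Mitochondrial transcripts made up 6.73 ± 0.718% of counts in GF grafts (SD, n = 4) and 7.52 ± 0.699% in controls (SD, n = 2), with an exact two-sided permutation p of 0.400, where 4 against 2 libraries cannot give a p below 0.0667. ND6 lies antisense to ND5, ATP8 overlaps ATP6, and the use of strand in counting is not known, so no direction is given for these 4.

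Marker lists of tissues next to a graft under the skin were also read. In the skeletal muscle list no member of 19 tested was called by edgeR, with 2 higher and 2 lower at an unadjusted p under 0.05 and 2 higher by DESeq2. Without FO 1 edgeR called 2 lower. Its summed CPM was 98.8 and 104.7 in the controls and 81.0, 89.9, 510 and 189 in GF 1 to GF 4. GF 3 thus had the highest sum of the 6 libraries, and GF 4 the next. In the list of skin and other epithelium 2 of 11 tested members were higher and 2 lower, with no lower one without control 1 or control 2, and KRT19, a keratin of simple epithelia, stood at 61.1, 45.9, 73.5 and 89.5 CPM in GF 1 to GF 4, with 8.57 and 6.04 CPM in the controls. KRT19 had a log2 fold change of 3.20 ± 0.40 (SE, edgeR adjusted p = 0.000163). FO grafts held 107 ± 33.3 CPM (SD, n = 4) of KRT19, which was not called between GF and FO grafts (GF minus FO log2 fold change -0.67 ± 0.27 SE, edgeR adjusted p = 0.0698). Of the nerve and glia list 5 of 18 tested members were higher and 3 lower, 3 and 2 higher without control 1 and control 2. ERBB3, the neuregulin receptor of Schwann cells, measured 66.0 and 83.1 CPM in control 1 and 2 and 7.72, 4.51, 4.14 and 2.07 CPM in the GF libraries. ERBB3 had a log2 fold change of -3.97 ± 0.42 (SE, edgeR adjusted p = 4.76e-05). ERBB3 was below both controls in all 4 GF libraries. The part that muscle, skin or nerve tissue taken with the graft plays in any difference above was not tested.

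Among the genes with the largest shift in CPM, PTGDS, the enzyme that makes prostaglandin D2 and a member of the Sertoli list, stood at 1219, 1746, 3402 and 4513 CPM in GF 1 to GF 4, with 49.0 and 56.4 CPM in the controls (log2 fold change 5.69 ± 0.59 SE, edgeR adjusted p = 4.64e-05). MAP1B, a microtubule protein, was at 447 and 524 CPM in the controls and at 1499, 1751, 4821 and 3233 CPM in GF 1 to GF 4. MAP1B had a log2 fold change of 2.54 ± 0.47 (SE, edgeR adjusted p = 0.00191). NFATC2IP, a partner of the transcription factor NFATC2, measured 81.3 and 71.9 CPM in control 1 and 2 and 323, 417, 1633 and 1536 CPM in the GF libraries (log2 fold change 3.67 ± 0.68 SE, edgeR adjusted p = 0.00202). These 3 genes were above both controls in each GF library. PLA2G16, a phospholipase, stood at 631, 728, 1241 and 1409 CPM in GF 1 to GF 4, with 161 and 187 CPM in the controls. PLA2G16 had a log2 fold change of 2.53 ± 0.40 (SE, edgeR adjusted p = 0.000701). GF 3 and GF 4 held the highest values of these 4 genes, and GF 1 and GF 2 also lay above both controls. FO grafts held 2400 ± 686 CPM (SD, n = 4) of PTGDS and 2347 ± 604 CPM (SD, n = 4) of MAP1B. Neither was called between GF and FO grafts (GF minus FO log2 fold change 0.18 ± 0.35 SE, edgeR adjusted p = 0.719 and 0.27 ± 0.34 SE, edgeR adjusted p = 0.563). NFATC2IP (2.77 ± 0.49 SE, edgeR adjusted p = 0.00105) and PLA2G16 (0.97 ± 0.29 SE, edgeR adjusted p = 0.0189) were higher in GF than in FO grafts. On the lower side PTMA, the small nuclear protein prothymosin alpha, was at 5482 and 7259 CPM in the controls and at 2039, 1398, 2664 and 2303 CPM in GF 1 to GF 4. PTMA had a log2 fold change of -1.60 ± 0.27 (SE, edgeR adjusted p = 0.000999). RPS6, a ribosomal protein that could share reads with processed copies, measured 2948 and 3366 CPM in control 1 and 2 and 1142, 871, 1014 and 783 CPM in the GF libraries (log2 fold change -1.73 ± 0.22 SE, edgeR adjusted p = 0.000168). CD63, a tetraspanin of late endosomes, stood at 1313, 960.3, 728 and 983 CPM in GF 1 to GF 4, with 2325 and 2842 CPM in the controls. CD63 had a log2 fold change of -1.37 ± 0.26 (SE, edgeR adjusted p = 0.00199).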

How the data were processed

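PolyA RNA was isolated with Trizol and sequenced as QuantSeq 3' libraries, per the labels' protocols. As deposited, the table lists an unnormalised count for every gene and library. Column names were tied to sample titles through their letters and number, with F read as FO. The submitters' processing notes list Sscrofa11.1 and DESeq2 1.42.0 and leave their roles unsaid. Aligner, counter and strand setting: not given in the sources used here. Of 27376 rows, 26836 carry a symbol of the RefSeq table of that build, 13 mitochondrial genes were named by locus tag, and 26 rows hold a date in place of a name.

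Counts of all 10 libraries were filtered with filterByExpr (minimum count 10), scaled with TMM and fitted with edgeR 4.0.16 (R 4.3.3, robust quasi-likelihood F test, Benjamini-Hochberg adjustment over all tested genes, threshold 0.05), because the control group has only 2 libraries. GF against FO used the same fit. Where a group had no count, the fold is a bound against 3 counts summed over its libraries, and where it had 1 to 3 counts a ratio with an exact 95% interval is given. Both cover counting error only. The 30 gene lists hold 1045 genes (985 in the table, 851 tested), and a list is described by its count of calls, without a set test. Members and lists were chosen with earlier results of these data known. Genes are named by a rule: the 12 higher and 12 lower called genes of largest fold that have a symbol, separate groups and an average log2 CPM from 4 upward; the 12 and 12 with the largest difference in mean CPM; up to 5 members of each list with the lowest p; and fixed markers (DDX4, GFRA1, KIT, SOX9, AMH and the like). Not all are described. The script was tested on simulated counts. Alternatives were DESeq2 1.42.0, RLE and total-count scaling, no filter, the 6 libraries alone, a replicate block, a fold threshold of 1.5, no robust estimation, no mitochondrial or globin genes, thinning to the lowest total and leaving out each library. Leaving out pairs of GF libraries was added after seeing the data. The labels give no batch.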

Additional observations from a re-analysis of the deposited data

Results flagged for a closer look

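In 5 of 193 gene or list values examined over the 4 GF libraries, 1 library stood apart from the other 3 by a gap whose share of the group's range passed Dixon's 95% critical value for 4 values, and chance alone gives about 1 in 20. GF 3 held 190 CPM of CCER1, a gene of spermatids, against 3.21, 22.9 and 10.4 CPM in GF 1, GF 2 and GF 4. GF 3 also held 184 CPM of the protamine gene PRM3 against 5.14, 31.2 and 31.1 CPM in GF 1, GF 2 and GF 4. Without GF 3, CCER1 was at least 55.5-fold and PRM3 at least 92.6-fold higher than in control testis, against at least 191-fold and 216-fold with it, and the bounds were 99.4 and 113 without control 1 and 91.1 and 104 without control 2. The edgeR adjusted p of CCER1 was 0.0560 without control 1 and 0.0659 without control 2. GF 4 held 83.7 CPM of NR2F1, a nuclear receptor of stromal cells, against 33.4, 32.3 and 39.4 CPM in the other GF libraries. GF 1 held 26.8 CPM of the complement gene C1R against 13.8 to 15.9 CPM, and 32.6 CPM of GYPC against 14.2 to 17.2 CPM.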

How the results depend on the processing

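The 4091 calls (2221 higher, 1870 lower) became 2201 (1216 and 985) with the 6 compared libraries alone, 2658 (1142 lower) against a fold of 1.5, and 7021 (3808 lower) without GF 1 and GF 2. Leaving out 1 library gave 1141 to 4729 calls, 562 to 2459 higher and 579 to 2270 lower, with the low ends reached without control 2. Fewer control libraries cut the calls most, and 2 controls limit the precision of every value here. DESeq2 called 5104 genes, RLE scaling 4098, total counts 3866, no filter 3978 and thinning to the lowest total 3564. Of 174 named genes that were called, 22 lost the call without control 1, 35 without control 2, and at most 9 under any other alternative, and none changed direction. Among named genes that were not called, RYR1 changed direction, to a log2 fold change of -0.0701 without GF 3 and GF 4 (edgeR adjusted p = 0.982). Replicate numbers 1 and 2 are shared by the groups, but deviations of control and GF libraries of the same number had correlations of -0.04 and -0.02, and those of FO and GF libraries 0.05, 0.22, 0.08 and 0.10 for numbers 1 to 4, not all above 0.1, so the numbers were not taken to pair the samples; with the replicate block, 3282 genes were called (1726 higher, 1556 lower). The causes of these shifts were not tested.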

Other observations

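Of 566 tested genes of chromosome X, 73 were higher (12.9%) and 89 lower (15.7%), with a median log2 fold change of -0.05. Over the autosomes 13.9% were higher and 11.7% lower, with a median of 0.03. Single autosomes ranged from 10.2% to 17.0% higher and from 8.06% to 14.2% lower, and no test was made across genes. Of the 4091 genes called, 519 (12.7%) carry a LOC number in place of a symbol and are not named above. CILP2, a cartilage protein in the matrix list, was at 0 in both controls and at 12.9, 19.9, 106 and 42.9 CPM in GF 1 to GF 4, and it measured 0.178 CPM on average in FO grafts. FBP2, the muscle form of fructose bisphosphatase, was lower, with 114 and 104 CPM in the controls and 0.429, 0.361, 0 and 1.73 CPM in the GF libraries.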
